A study of Mus musculus with 12 samples.

Results

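A set of 10 classic target genes of the hypoxia-inducible factors (HIFs) that lie outside glycolysis were read for their histone marks in mouse mesenchymal stem cells (MSCs). The set held Bnip3, Bnip3l, Ankrd37, Ndrg1, Ddit4, Car9, Car12, Adm, Mxi1 and Cited2, which are 10 of the 21938 protein-coding genes of the annotation. The genes were listed by name as known hypoxia-induced targets, with earlier results of these data known. For each gene, every called interval in the gene body and in 20000 bp on either side was read. The 10 windows held 27 intervals of any mark, of which 20 carried acetylation of lysine 27 of histone H3 (H3K27ac), out of 15421 H3K27ac intervals in the genome.

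HIFs are heterodimeric transcription factors. When oxygen is ample, prolyl hydroxylases mark the alpha subunit for VHL-dependent destruction, and when oxygen is scarce the subunit accumulates, pairs with ARNT and binds hypoxia response elements, whose core reads ACGTG or GCGTG. Besides glucose metabolism, the induced genes serve the removal of mitochondria, pH regulation, growth restraint and feedback on transcription. H3K27ac is found at promoters and enhancers in use, whereas H3K4me3, the trimethylation of lysine 4 on the same histone, is found mainly at promoters.

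The MSCs came from bone of wild-type male C57BL/6N mice, aged 3 to 5 months, and were sorted as CD45-/Ter-119-/CD140a+/Sca-1+ cells. The sample labels call them bone-marrow cells, and the study's methods describe isolation from crushed, collagenase-treated bone. Per those methods, both groups were first expanded in hypoxia (2% O2), and after the sort the cells either stayed there (hypoxia-cultured) or were moved to normoxia (21% O2, normoxia-cultured). The study left the moved cells time to adapt before its experiments and addressed long-term effects of normoxia. Chromatin immunoprecipitation with sequencing gave 12 libraries in 6 groups of 2: H3K27ac, H3K4me3 and input at each oxygen level. The study describes its ChIP-seq replicates as independent biological experiments, and the labels do not name the animals behind each library.

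Each mark and oxygen level was deposited as 1 pooled peak list, 4 in all, with a score per interval. There are no values per library and no depth, so no difference below could be set against a spread between replicates, and none has a test or a p-value. The score ran from 50 to 160, with the remaining intervals at 1000. Its definition was not given in the sources used here, and 1000 was treated as a ceiling and not as a size. In such pooled cells, a mark on fewer cells and less of it per cell cannot be told apart. The lists were 1 joint segmentation: of 22555 distinct intervals, 0 overlapped another in part. Between the oxygen levels, 14614 H3K27ac intervals were shared, 589 were called in hypoxia only and 218 in normoxia only. All 14600 shared H3K4me3 intervals had the same score at both oxygen levels, so that mark allowed a comparison of presence but not of score. The labelled cell type was checked against its markers: 11 of 12 stromal marker genes carried H3K4me3 at a start and 10 of 12 carried H3K27ac, Pdgfra with both marks and Ly6a, which encodes Sca-1, with H3K27ac alone. Of the markers of other cells, 0 of 4 endothelial genes and 0 of 2 muscle genes carried H3K4me3 at a start. Among blood genes, the macrophage gene Cd68 carried both marks, and Ptprc, the gene of the sorting marker CD45, carried neither mark. These marker calls were identical at both oxygen levels.

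Promoter sequence was available for 8 of the 10 genes in the RefSeq table of build GRCm38.p6 (250 bp before to 50 bp after each start), and 10 such promoters of those 8 genes were searched for the HIF cores on both strands. Of these, 6 are shown because they span the range found in the set: several cores (Bnip3, Ankrd37), an E-box palindrome (Cited2), and the promoters of the 3 genes without an H3K27ac interval that covers a start (Adm, Car9, Car12). Capitals mark the cores, and cores on the opposite strand appear as CACGT or CACGC. The palindrome CACGTG holds the first core on both strands and counts as 2 cores.
Bnip3 promoter, chr7:138909457-138909756, minus strand: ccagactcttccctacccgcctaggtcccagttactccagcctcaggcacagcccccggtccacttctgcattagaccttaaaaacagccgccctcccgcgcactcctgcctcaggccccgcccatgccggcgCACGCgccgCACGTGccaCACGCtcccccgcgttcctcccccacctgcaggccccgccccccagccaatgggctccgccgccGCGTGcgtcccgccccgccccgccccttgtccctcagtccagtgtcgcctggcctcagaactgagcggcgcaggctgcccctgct
Ankrd37 promoter, chr8:45999801-46000100, minus strand: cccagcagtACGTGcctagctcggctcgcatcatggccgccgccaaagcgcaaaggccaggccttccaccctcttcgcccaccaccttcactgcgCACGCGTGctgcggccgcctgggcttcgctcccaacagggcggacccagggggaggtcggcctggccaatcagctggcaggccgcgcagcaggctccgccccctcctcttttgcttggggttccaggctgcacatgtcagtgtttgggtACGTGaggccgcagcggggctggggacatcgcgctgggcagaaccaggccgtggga
Cited2 promoter, chr10:17722978-17723277, plus strand: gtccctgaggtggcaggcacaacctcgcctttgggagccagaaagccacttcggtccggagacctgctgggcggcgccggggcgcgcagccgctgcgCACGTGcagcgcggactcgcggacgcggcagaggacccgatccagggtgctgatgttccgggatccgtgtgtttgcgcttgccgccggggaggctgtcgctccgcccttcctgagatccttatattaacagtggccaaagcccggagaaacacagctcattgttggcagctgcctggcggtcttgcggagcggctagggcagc
Car9 promoter, chr4:43506776-43507075, plus strand: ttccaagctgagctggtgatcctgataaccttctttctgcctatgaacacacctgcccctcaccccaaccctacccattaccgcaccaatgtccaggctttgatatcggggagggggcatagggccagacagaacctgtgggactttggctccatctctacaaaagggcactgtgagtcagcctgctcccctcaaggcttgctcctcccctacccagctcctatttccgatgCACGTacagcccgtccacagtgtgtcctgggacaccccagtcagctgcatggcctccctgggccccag
Car12 promoter, chr9:66713436-66713735, plus strand: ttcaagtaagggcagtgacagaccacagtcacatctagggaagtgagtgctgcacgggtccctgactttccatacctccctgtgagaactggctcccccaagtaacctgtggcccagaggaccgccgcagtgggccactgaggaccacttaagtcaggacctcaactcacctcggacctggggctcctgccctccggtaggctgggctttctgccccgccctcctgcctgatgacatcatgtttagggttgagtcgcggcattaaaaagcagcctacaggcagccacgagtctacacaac
Adm promoter, chr7:110627407-110627706, plus strand: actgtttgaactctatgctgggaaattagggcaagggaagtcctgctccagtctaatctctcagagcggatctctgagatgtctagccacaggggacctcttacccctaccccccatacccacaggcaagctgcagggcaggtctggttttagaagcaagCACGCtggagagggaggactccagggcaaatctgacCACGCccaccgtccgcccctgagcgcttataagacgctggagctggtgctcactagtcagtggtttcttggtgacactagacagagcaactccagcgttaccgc

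Of the 8 genes searched, 7 had a core in at least 1 promoter, and so did 8 of the 10 promoters. Among 21263 promoters of protein-coding genes of the same length, 49.3% held a core. Bnip3 had 5 cores, with a CACGTG among them, and Ankrd37 had 4, of which 2 overlap on opposite strands in CACGCGTG. At least 4 were found in 5.03% of all promoters, and at least 2 in 24.7%. Ddit4, Adm and Cited2 had 2 cores each, the pair in Cited2 being the strands of 1 CACGTG. Car9 had 1 core, 18 bp before the start, and Car12 had 0. Mxi1 had 0 cores at its upstream start and 1 in each of the promoters of its 2 downstream starts. These matches describe the letters of the windows and do not show binding.

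**Figure D1:**
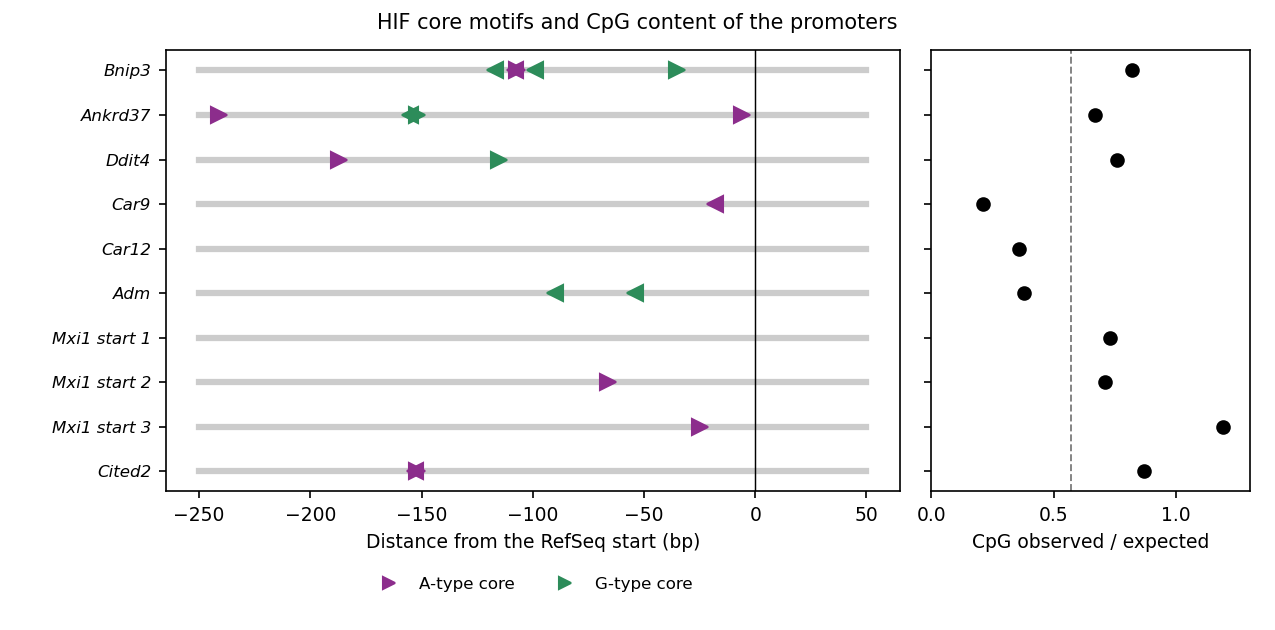
Left, positions of HIF cores in the RefSeq promoters of 8 of the 10 genes, in bp from the start, with A-type cores (ACGTG, purple) and G-type cores (GCGTG, green) pointing along the strand that reads them. Right, CpG observed over expected for each promoter, with the median of all promoters (0.57) dashed; Car9, Car12 and Adm lie to the left of the line and the other promoters to the right.

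The presence of the marks was compared first. In the 10 windows, 19 H3K27ac intervals were called in hypoxia and 19 in normoxia. Of the 20 distinct H3K27ac intervals, 18 were shared, 1 was called in hypoxia only (at Bnip3) and 1 in normoxia only (at Cited2). Thus 1 of 10 genes had a hypoxia-only interval, where 4.70% of all protein-coding genes had one in the same window, and 1 of 10 had a normoxia-only interval, where 1.15% had one. Taken as either direction, the count was 2 of 10 genes against 5.81%, and 2 of the 9 genes with any H3K27ac in the window against 10.5%. The counts in each direction rest on a single interval, and the count of both on 2. H3K27ac covered 72820 bp of the windows in hypoxia and 70820 bp in normoxia. H3K4me3 gave 19 intervals at each oxygen level, the same ones, so 0 of 10 genes had a condition-specific H3K4me3 interval, where 0.0638% of all genes had one.

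At the transcription starts the same marks were called at both oxygen levels, though some H3K27ac scores differed. H3K4me3 lay within 1000 bp of a start in 9 of 10 genes (58.9% of all protein-coding genes in hypoxia), and H3K27ac in 8 of 10 (37.6%). Car12 had neither mark. Car9 was the 1 of 9 genes with H3K4me3 but without H3K27ac at the start, a pattern held by 38.1% of all genes with H3K4me3 there. The best H3K27ac score at the start was 1000 in 4 of the 8 genes in hypoxia (Bnip3, Bnip3l, Adm and Mxi1), where 34.8% of all genes with shared H3K27ac at a start reached it. In normoxia it was 1000 in 3 of 8 (28.9% of all). It was higher in hypoxia at 2 of the 8, Ankrd37 and Adm (35.4% of all), and equal at the other 6.

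**Figure D2:**
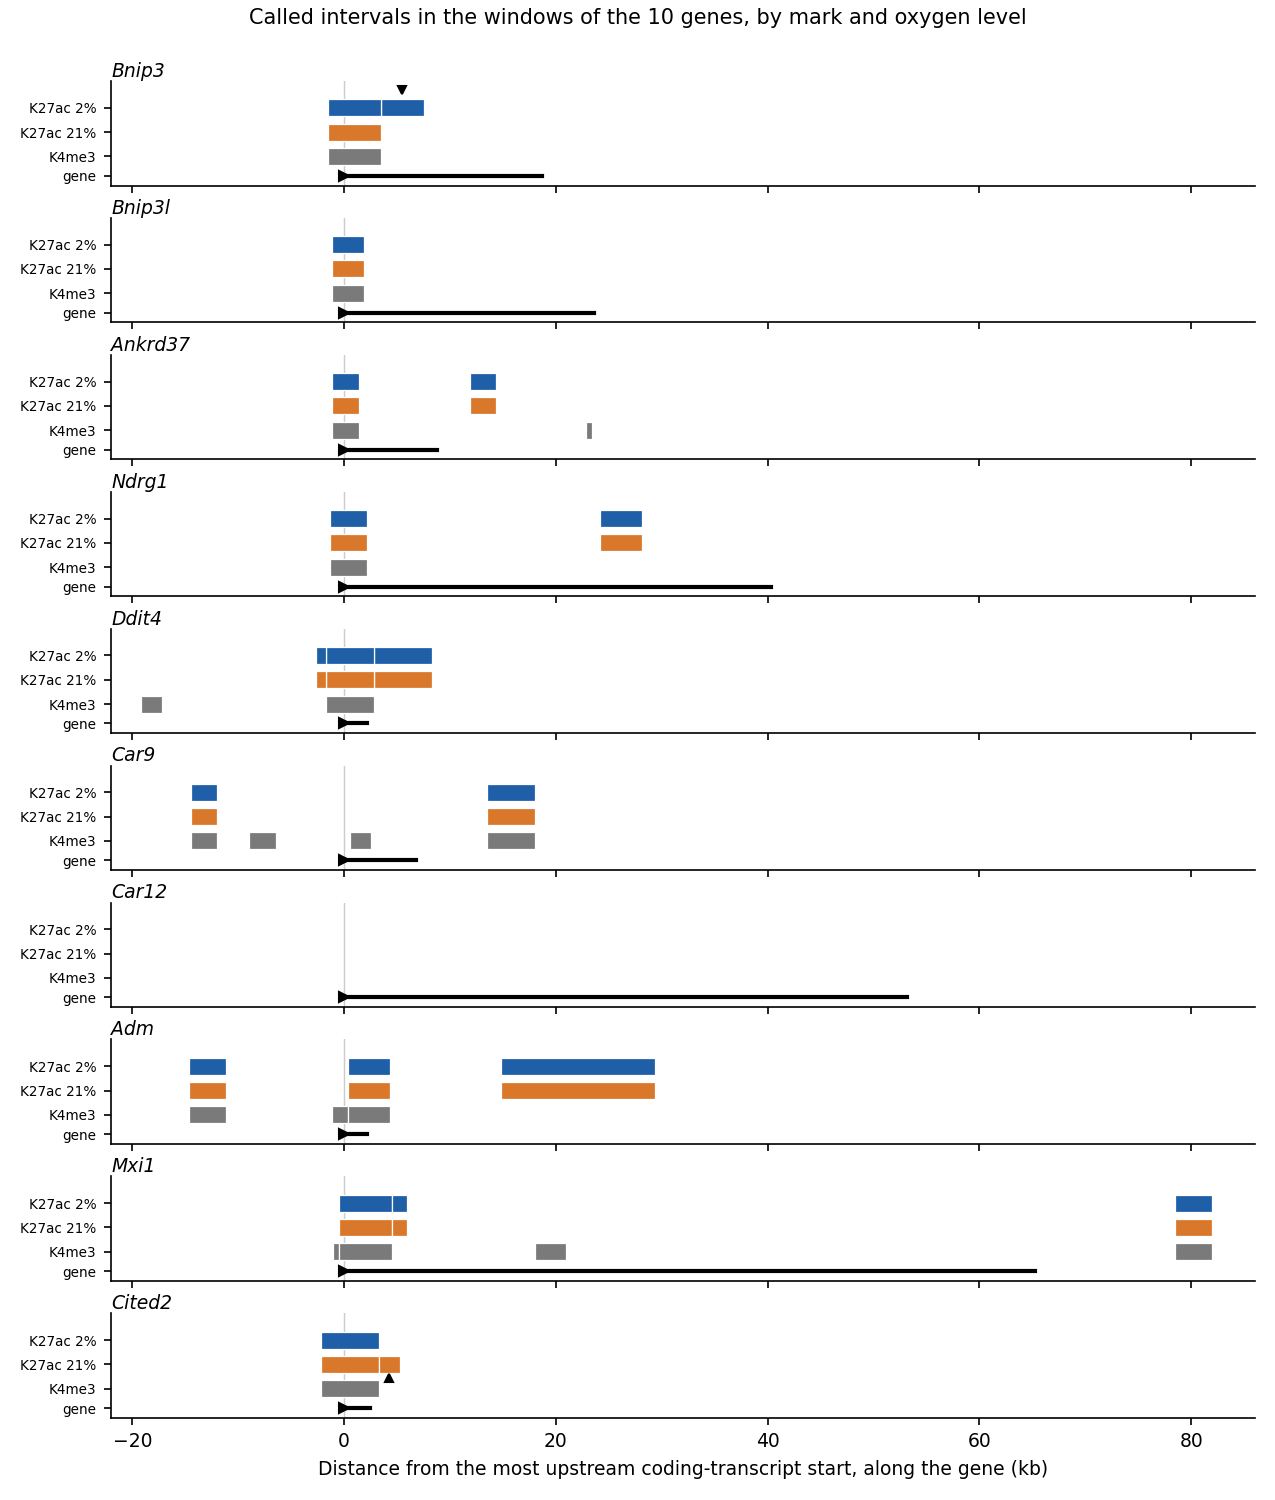
Intervals called in the windows of the 10 genes, drawn along each gene in kb from its most upstream coding start: H3K27ac at 2% O2 (blue) and 21% O2 (orange) and H3K4me3 (grey, the same at both oxygen levels), with the gene as a black line. The downward triangle marks the 1 hypoxia-only interval (Bnip3) and the upward triangle the 1 normoxia-only interval (Cited2), and Car12 is empty.

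The scores of the 18 shared H3K27ac intervals were compared next. The score was higher in hypoxia at 7 of 18 (39.9% of all shared intervals), equal at 10, and higher in normoxia at 1 (16.6% of all). Over all 14614 shared intervals, 6365 had equal scores. Since the score is not defined, an equal score does not show equal acetylation. The share that was higher in hypoxia was thus near that of all shared intervals. The median difference was 0 in the windows and 0 over all shared intervals. Of the 10 equal intervals, 5 were at 1000 in both lists. All 6 intervals that differed by more than 10 were higher in hypoxia, where 76.5% of the 3991 shared intervals that differed by as much were, and the other 2 that differed did so by 1 or 2. The limit of 10 was chosen after the values were seen. Since the median score was 111 in the hypoxia list and 102 in the normoxia list, each score was also ranked within its own list as a percentile. On that scale the same 6 intervals stood higher in hypoxia and 12 stood lower, where 30.3% of all shared intervals stood higher. The 12 were the 10 with equal scores, the 1 that scored higher in normoxia and an interval in Ndrg1 (64 in hypoxia, 63 in normoxia). Standing lower on this scale thus does not mean a lower score. The median shift was -1.4 percentile points in the windows and -1.67 over all. An interval at 1000 in both lists moved by -1.7 points, from percentile 90.6 in normoxia to 88.9 in hypoxia, because 22.2% of hypoxia peaks and 18.9% of normoxia peaks were at 1000.

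**Figure D3:**
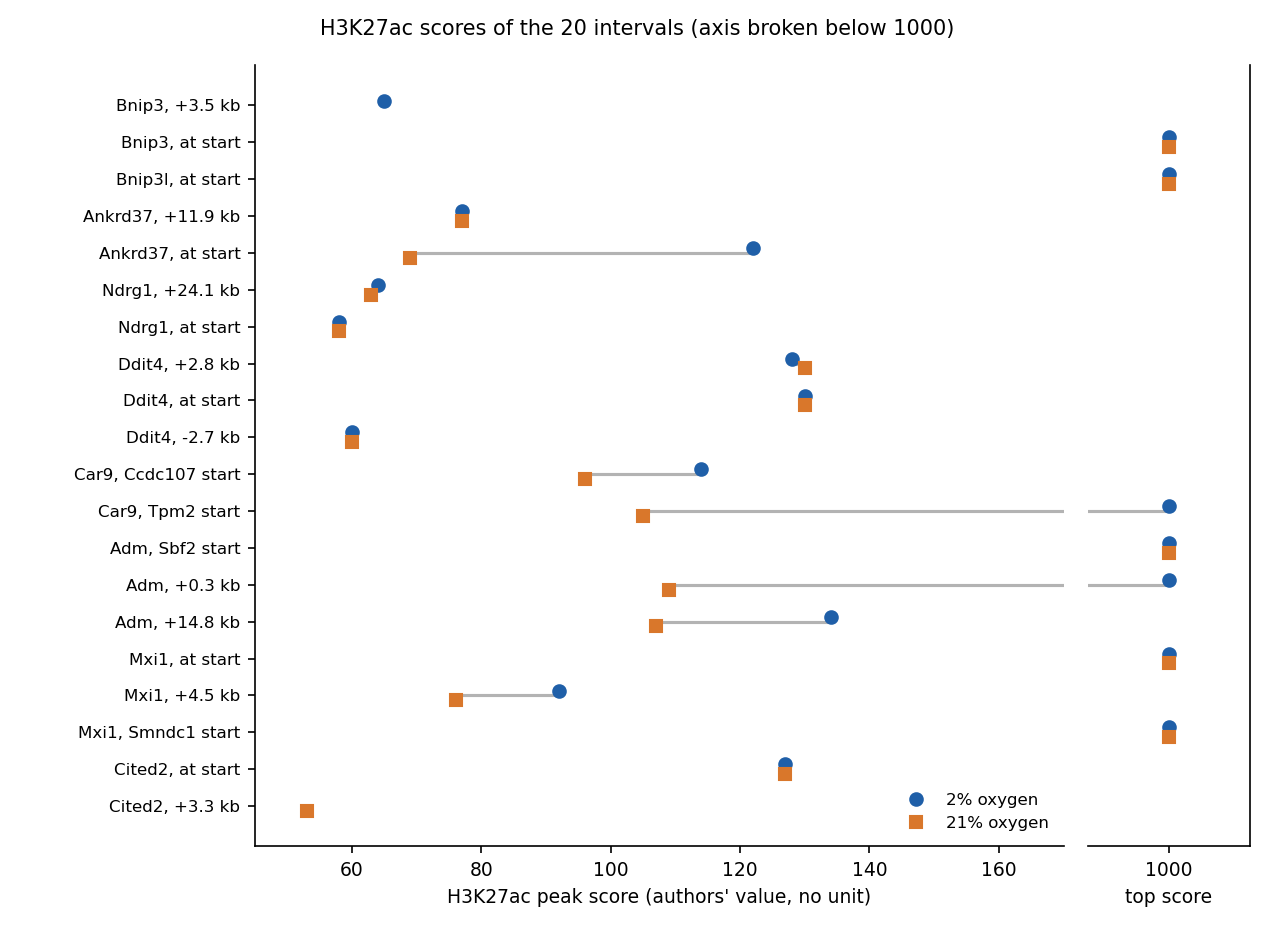
H3K27ac score (the authors' value, no unit) of the 20 H3K27ac intervals in hypoxia (blue circles) and normoxia (orange squares), each named by its gene and by its place (at the start, at a neighbour's start, or the nearer edge in kb from the start), with the axis broken below the top score of 1000. The start of Ankrd37 (122 and 69), the interval over Adm (1000 and 109) and the interval at the start of Tpm2 near Car9 (1000 and 105) are the furthest apart.

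Bnip3 and Bnip3l (also called NIX) encode outer-membrane receptors that lead mitochondria into autophagy. Bnip3 lies on the minus strand of chromosome 7 (138890836 to 138909519, mm10). The interval over its start, from 138906001 to 138911000, scored 1000 in both H3K27ac lists and 150 in both H3K4me3 lists. The hypoxia-only interval adjoined it on the side of the gene body, from 138902001 to 138906000, inside intron 1 and 3506 to 7505 bp past the start. It scored 65 in hypoxia, at percentile 17.5 of that list, was not called in normoxia and carried no H3K4me3. In hypoxia, H3K27ac at Bnip3 thus ran over 9000 bp without a gap, and in normoxia over 5000 bp. A position next to a shared interval was held by 228 of the 589 hypoxia-only intervals (38.7%), and 69.6% of them scored 65 or less. The interval was 42.0% GC and held 4 HIF cores in 4000 bp. Its last 300 bp toward the start, with 2 cores, and a stretch of the Cited2 interval described below are shown, since they come from the 2 condition-specific intervals of the set.
Bnip3 intron 1, hypoxia-only interval, chr7:138905701-138906000, plus strand: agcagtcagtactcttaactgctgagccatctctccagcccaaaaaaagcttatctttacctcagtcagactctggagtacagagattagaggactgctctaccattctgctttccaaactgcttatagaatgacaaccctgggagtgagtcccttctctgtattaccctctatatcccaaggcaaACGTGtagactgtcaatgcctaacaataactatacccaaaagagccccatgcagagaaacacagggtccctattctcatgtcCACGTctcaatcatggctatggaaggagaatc
Cited2 downstream, normoxia-only interval, chr10:17727439-17727738, plus strand: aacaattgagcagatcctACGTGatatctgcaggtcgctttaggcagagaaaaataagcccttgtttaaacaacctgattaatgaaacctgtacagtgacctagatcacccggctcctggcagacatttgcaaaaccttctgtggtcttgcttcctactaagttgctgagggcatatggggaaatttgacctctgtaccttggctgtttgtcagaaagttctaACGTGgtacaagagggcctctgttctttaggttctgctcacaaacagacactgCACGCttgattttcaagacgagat

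Bnip3l lies on the minus strand of chromosome 14 (66985239 to 67008877). It had 1 interval, from 67007001 to 67010000 over its start, with an H3K27ac score of 1000 in both lists and an H3K4me3 score of 126. No difference between the oxygen levels was seen in its window. At both mitophagy genes the start was therefore at the top score in each list, where a higher value in either could not be seen.

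Car9 and Car12 encode carbonic anhydrases of the cell surface that regulate extracellular pH. Car9 (chromosome 4, 43506966 to 43513729, plus strand) had an H3K4me3 interval from 43507501 to 43509500, which began 535 bp past the start, covered exons 2 to 5 of 11 and scored 93. It had no H3K27ac in the gene at either oxygen level. The noncoding gene Gm12454 overlaps the same interval, and the mark does not tell the strands apart. Both H3K27ac intervals of the window lay at the starts of neighbours. The interval from 43520501 to 43525000 at the start of Tpm2, a tropomyosin gene, scored 1000 in hypoxia and 105 in normoxia. It moved from percentile 51.9 in normoxia to 88.9 in hypoxia, a shift of 37.0 points, and 2.53% of all shared intervals moved as far or further in that direction. The interval from 43492501 to 43495000, over the starts of Ccdc107 and the noncoding RNA gene Rmrp, scored 114 in hypoxia and 96 in normoxia (20.5% as far or further). An H3K4me3 interval from 43498001 to 43500500, at the start of Arhgef39, had no H3K27ac. The higher scores in hypoxia near Car9 were thus at other genes' promoters, and the lists do not assign an interval to a target gene.

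Car12 (chromosome 9, 66713686 to 66766845, plus strand) had no interval of either mark at either oxygen level in its window of 93160 bp. It was the only one of the 10 genes without a called interval.

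Among the genes of stress and signalling, Ddit4 (REDD1, an inhibitor of mTORC1) lies on the minus strand of chromosome 10 (59949669 to 59951834). The interval from 59949001 to 59953500 held the whole gene and scored 130 in both H3K27ac lists and 130 for H3K4me3. Past its end, the interval from 59943501 to 59949000 scored 128 in hypoxia and 130 in normoxia, and was the only one of the 18 that scored higher in normoxia. Its shift was -8.7 percentile points, and 8.75% of all shared intervals moved as far or further in that direction. An equal score also changes rank between the lists: the interval over the gene, at 130 in both, shifted by -5.3 points. Upstream, the interval from 59953501 to 59954500 scored 60 in both lists. The 3 adjoining intervals gave Ddit4 11000 bp of H3K27ac at each oxygen level. A further H3K4me3 interval, from 59969001 to 59971000 and 17167 bp upstream, scored 94 and had no H3K27ac.

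Ndrg1, a stress-responsive gene that restrains growth and metastasis, lies on the minus strand of chromosome 15 (66929318 to 66969640). Its start interval, from 66967501 to 66971000, scored 58 in both H3K27ac lists, the lowest of the start intervals, and 1000 for H3K4me3, the highest H3K4me3 score in the set. Within the gene, an interval over exons 6 to 9 of 16, from 66941501 to 66945500, scored 64 in hypoxia and 63 in normoxia and carried no H3K4me3. The noncoding gene Gm2895 overlaps the start interval.

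Adm encodes adrenomedullin, a vasodilator peptide, and lies on the plus strand of chromosome 7 (110627661 to 110629820). It had the most intervals that scored higher in hypoxia among those nearest to a gene of the set. The start itself lay in an H3K4me3 interval without H3K27ac, from 110626501 to 110628000, with a score of 132. The next interval, from 110628001 to 110632000, began 340 bp past the start, covered exons 2 to 4 of 4 and carried both marks. Its H3K27ac score was 1000 in hypoxia and 109 in normoxia. This was a shift of 34.7 percentile points, from 54.2 to 88.9, and 3.08% of all shared intervals moved as far or further. A broad interval downstream, from 110642501 to 110657000 (14500 bp, the widest of the set), had no H3K4me3 and scored 134 in hypoxia and 107 in normoxia, a shift of 17.3 points (9.93% as far or further). Only its first part lies in the window. At the start of the neighbour Sbf2, from 110613001 to 110616500, the score was 1000 in both lists. The noncoding gene Gm28863 overlaps both intervals over Adm. Across the set, 2 of the 7 intervals at 1000 in hypoxia were below it in normoxia, those at Adm and at Tpm2. Over all shared intervals at 1000 in hypoxia, 23.6% were below it in normoxia. In the reverse direction the count was 0 of 5, where 8.10% of all did so.

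Ankrd37, a small ankyrin-repeat protein gene, lies on the minus strand of chromosome 8 and starts in a region shared with Lrp2bp. The gene record spans 45996902 to 46005707. The interval over the coding start of Ankrd37 ran from 45998501 to 46001000. It scored 122 in hypoxia and 69 in normoxia for H3K27ac, and 128 for H3K4me3 in both. The H3K27ac score stood at percentile 55.1 in hypoxia and 23.4 in normoxia, a shift of 31.6 points, and 3.95% of all shared intervals moved as far or further. It was the only start interval of the set that differed without reaching the top score. As the starts of Ankrd37 and Lrp2bp share the interval, a difference at either cannot be told apart from one at the other. Further along, an interval inside Ufsp2, from 45985501 to 45988000, scored 77 in both H3K27ac lists, and an H3K4me3 interval near the start of Ufsp2, from 45976501 to 45977000, scored 85.

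Mxi1 and Cited2 act on transcription: Mxi1 competes with Myc for the partner Max, and Cited2 competes with HIF-1alpha for the coactivators CBP and p300. Mxi1 (chromosome 19, 53310518 to 53375810, plus strand) has 8 annotated coding starts in 2 regions. The upstream starts lay in an interval from 53310001 to 53315000, at 1000 in both H3K27ac lists and 134 for H3K4me3. The interval that adjoined it, from 53315001 to 53316500, had no H3K4me3 and scored 92 in hypoxia and 76 in normoxia, a shift of 8.7 percentile points (16.7% as far or further). The downstream starts lay in an interval from 53328501 to 53331500 with H3K4me3 (134) and no H3K27ac at either oxygen level. It held 26 HIF cores in 3000 bp, 8.67 per kb, the highest density among the 27 intervals. A narrow H3K4me3 interval before the gene, from 53309501 to 53310000, scored 84. The interval at the start of the neighbour Smndc1, from 53389001 to 53392500, scored 1000 in both H3K27ac lists.

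Cited2 lies on the plus strand of chromosome 10 (17723218 to 17725674). The interval from 17721001 to 17726500 covered the whole gene and scored 127 in both H3K27ac lists and 126 for H3K4me3. The normoxia-only interval followed it directly, from 17726501 to 17728500, and began 827 bp past the end of the gene. Its score of 53 stood at percentile 4.6 of the normoxia list, and 38.5% of all normoxia-only intervals scored 53 or less. Adjoining a shared interval was found for 63 of the 218 normoxia-only intervals (28.9%). It held 7 HIF cores in 2000 bp at 42.7% GC, of which 3 stand in the stretch printed above. Bnip3 and Cited2 thus had the same form in opposite directions: a start interval with an equal score in both lists, extended downstream by a low-scoring interval called at 1 oxygen level.

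**Figure D4:**
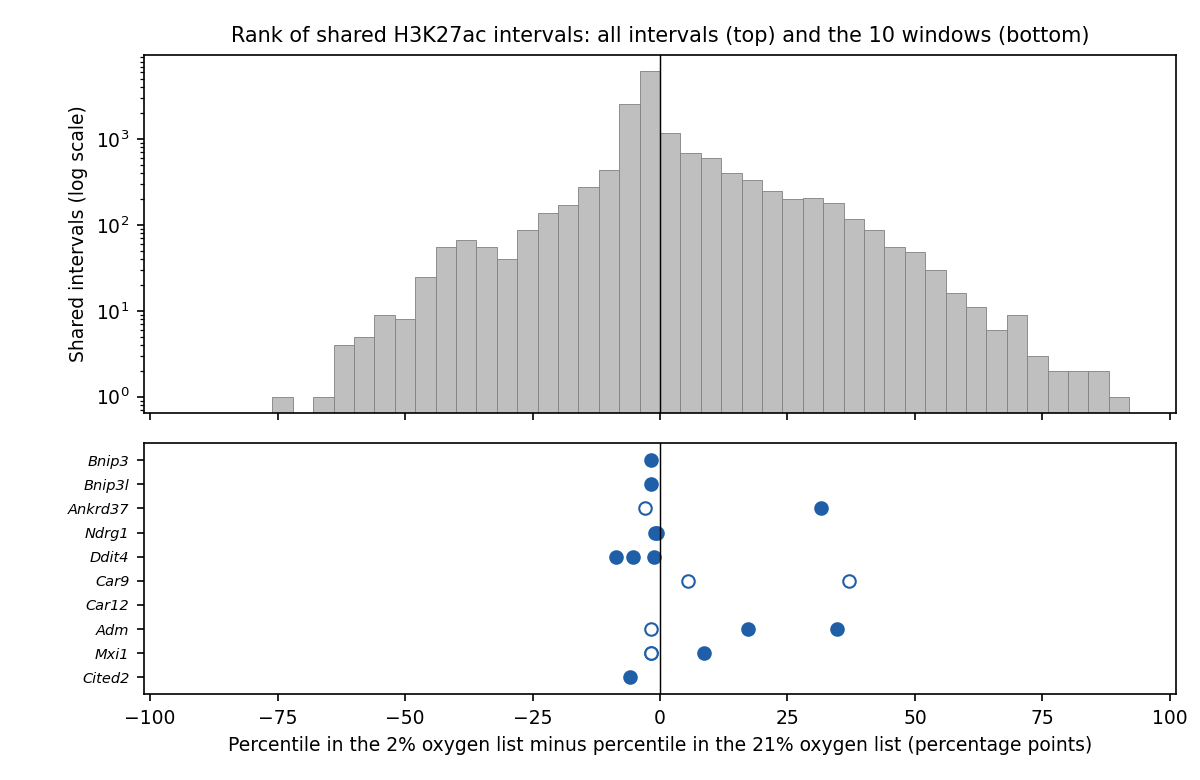
Top, number (log scale) of all 14614 shared H3K27ac intervals by the percentile in the hypoxia list minus that in the normoxia list. Bottom, the 18 shared intervals of the windows by gene. They are filled where the nearest start is that of the gene and open where it is a neighbour's. Of these, 6 lie right of 0, at Ankrd37, Car9, Adm and Mxi1. The other 12, of which 10 had equal scores in both lists, lie left of 0 by at most 8.7 points.

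Split by the nearest start, the gene itself was nearest for 13 of the 18 shared intervals, of which 5 scored higher in hypoxia, and another gene for 5, of which 2 did. A window of 50000 bp on each side added further condition-specific intervals. They were a hypoxia-only interval of score 73 at 26667 bp from Ddit4 and a normoxia-only interval of score 52 at 44191 bp from Mxi1. Both were nearest to the start of another gene, Anapc16 and Smndc1.

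Over the 20 H3K27ac intervals, HIF cores stood at 2.45 per kb (201 cores in 82 kb), against 1.58 per kb over all H3K27ac intervals. The same intervals held 27.6 CpG per kb, against 18.7 over all. In the 12 intervals that also carried H3K4me3 the density was 3.3 per kb, against 2.41 in all such intervals, at 40.5 and 39.5 CpG per kb. In the 8 without H3K4me3 it was 1.31 per kb, against 1.27. Both cores contain a CpG, and the contribution of base composition was not tested. In the promoters, CpG observed over expected was 0.21 in Car9, 0.36 in Car12 and 0.38 in Adm, and between 0.67 and 1.19 in the others, where the median of all promoters was 0.57. Among the 8 genes with a promoter entry, the 3 below the median were those without an H3K27ac interval that covers a start. This is a stricter definition than the 1000 bp used above, under which Adm does have H3K27ac at its start and only Car9 and Car12 do not. The 2 downstream promoters of Mxi1, at 0.71 and 1.19, also lay outside H3K27ac. This comparison was chosen after the values were seen.

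Other genes of the HIF pathway, 36 in all, were read in the same way. H3K4me3 lay at a start of 35 (58.9% of all protein-coding genes) and H3K27ac at a start of 28 (37.6%). Of the 36, 6 had a condition-specific H3K27ac interval (5.81% of all protein-coding genes), 3 in hypoxia only (4.70%) and 3 in normoxia only (1.15%). Among protein-coding genes with any H3K27ac in the window, the share with a condition-specific interval was 10.5%. The 36 include genes without any H3K27ac in the window, so that share has a narrower base than the count of 6. The hypoxia-only intervals were at Slc16a3 (score 109, with H3K4me3 at its start), which encodes the lactate exporter MCT4, at Aldoa (78), a glycolytic aldolase, and within P4ha2 (125), a collagen prolyl hydroxylase subunit. The normoxia-only intervals were within Hif1a (90) and P4ha1 (63), and in the window of Ero1l (51), where the nearest start was that of Psmc6. By group, 1 of 9 genes of the oxygen-sensing core, 2 of 10 of glucose use and 3 of 17 other targets had one. These group counts also include genes without any H3K27ac in the window. The share on the same base was thus 5.81% of all genes, and the 10.5% is not a like comparison. Of 79 shared intervals in these windows, 27 scored higher in hypoxia, which is 34.2% of the 79 beside 39.9% of all shared intervals. A further 35 were equal, and 17 scored higher in normoxia, as did 16.6% of all shared intervals.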

How the data were processed

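Per the study's methods and the submitters' processing notes, the authors mapped reads to mm10 with Bowtie2 and discarded the duplicates marked by Picard. chromstaR, run in its differential mode across the oxygen levels, called the peaks (versions not given in the sources used here). The deposited lists hold, for each peak, an interval and a score, whose definition was not given. They hold no read counts, so depth was unknown. The 10 genes and the pathway and marker lists were chosen with earlier results of these data known. Gene windows, starts and neighbours were taken from the protein-coding transcripts of the GENCODE annotation of the same build. An interval was condition-specific when it shared no base with the other list of its mark. Percentiles are mid-ranks within a list. All 10 genes are named, neighbours only where an interval lay at their start or inside them, and pathway genes only where they held a condition-specific interval. A single list per group allowed no test. The overlap and motif code was tested on simulated data. Python 3.11.15, numpy 2.4.6 and pysam 0.24.0 were used. Alternatives covered the window, the score cut, the definition of condition-specific, the start window and the motif. The result of 1 marker gene is not reported here.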

Additional observations from a re-analysis of the deposited data

How the results depend on the processing

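No paired analysis was possible because each list pools both libraries of its group, and leaving out a replicate was not possible for the same reason. Of 51 alternative values, 29 were at or near the reported value and 22 moved. Some of the 29 did change. Pathway genes with a condition-specific interval (6 reported) numbered 5 at 5000 bp, and 8 at 50000 bp or without the lowest-scoring 25% of both lists. Genes with H3K4me3 at a start (9 reported) numbered 8, and those with H3K27ac (8 reported) 7, by the 5' end of the gene record or without that 25%. The hypoxia-only count (1 reported) was 2 with a window of 50000 bp, and 0 without the lowest-scoring 25% of the counted list or when no peak of the other list could lie within 1000 bp. The normoxia-only count (1 reported) was 2 at 50000 bp and 0 in the gene body only, without the lowest 25% of both lists or of the counted list, and under the 1000 bp rule. Genes with either numbered 4, 1, 1, 0 and 0 under the settings 50000 bp, gene body, 25% of both lists, 25% of the counted list and 1000 bp rule, against 2 reported. Without the lowest 25% of both lists, Bnip3 and Cited2 lost their intervals and the start interval of Ankrd37 became hypoxia-only, since its normoxia score of 69 lay under the limit of 71. A window of 5000 bp left 4 of 12 shared intervals higher in hypoxia. The median difference was -1.36 points as a percentile. Core density was 1.07 per kb for ACGTG only, against 0.746 over all H3K27ac intervals. Without H3K4me3 it was 1.31, against 1.27 in all such intervals. Pathway genes with a condition-specific interval numbered 1 under the 1000 bp rule. The share of all genes with one was 3.8% at 5000 bp, 9.31% at 50000 bp, 8.41% without the lowest 25% of both lists and 2.94% under the 1000 bp rule. Where no construction shows it, the cause was not tested. The lists limit every statement to calls and scores, and at 1000 a difference cannot be seen.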
